A study of Arabidopsis thaliana with 12 samples.

Results

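PHO2, NLA, APS1, APS3, APS4 and SULTR2;1 are the Arabidopsis thaliana genes of phosphate and sulfate supply whose transcripts pair with miR399, miR827 or miR395. They were taken by gene ID from the deposited small RNA table, where all 6 of 6 were found among 30926 genes. The table gives, for each gene, the number of small RNA reads assigned to it, so every value here is small RNA from a gene and not its mRNA level. RNA shorter than 200 nt came from the aerial tissue of 18-day-old plants, with 12 libraries in 4 genotypes of 3 replicates each. Col-0 is the wild type. The double mutant ein5-1 ski2-3 carries mutations in EIN5, the cytoplasmic exonuclease that degrades RNA from its 5′ end, and in SKI2, a helicase of the cytoplasmic exosome, which degrades RNA from its 3′ end. The single mutant rdr6-11 carries a mutation in RDR6, the polymerase that copies single-stranded RNA into double-stranded RNA, from which secondary siRNAs are cut. The triple mutant rdr6-11 ein5-1 ski2-3 carries all of these alleles. The design asks how the small RNA profile of ein5-1 ski2-3 depends on RDR6.

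Plants adjust phosphate and sulfate uptake through miRNAs that accumulate when the ion is scarce. miR399 acts on PHO2, a ubiquitin-conjugating enzyme that lowers the level of phosphate transporters, and miR827 acts on NLA, a ubiquitin ligase that does the same at the plasma membrane. miR395 acts on APS1, APS3 and APS4, plastid ATP sulfurylases that activate sulfate for assimilation, and on SULTR2;1, a low-affinity sulfate transporter of the vascular tissue. An miRNA-guided cut leaves RNA fragments that the decay machinery removes and that RDR6 can use as templates.

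The paired sequences are shown because pairing with these miRNAs is what the 6 genes have in common by choice. They were read from the RefSeq TAIR10.1 genome, written 5′ to 3′ in DNA letters. In each miRNA the seed, bases 2 to 8, is in capitals.
miR399f: tGCCAAAGgagatttgcccgg
miR827: tTAGATGAccatcaacaaact
miR395a: cTGAAGTGtttgggggaactc
In each target site the bases that form Watson-Crick pairs with the miRNA are in capitals, and the site is read 5′ to 3′, so that its right end faces the seed.
PHO2: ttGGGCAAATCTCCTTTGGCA
NLA: tGTTTGTTGATGGTCATCTAA
APS1 and APS3: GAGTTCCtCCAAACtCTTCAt
APS4: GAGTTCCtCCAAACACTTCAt
SULTR2;1: aAGTTCtCCCAAACACTTCAa

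Each site was found by a search of the longest mRNA of each gene for the lowest pairing penalty. Other mRNAs of a gene were not searched. The penalty counted 1 for a mismatch and 0.5 for a G-U pair, doubled at miRNA positions 2 to 13. The PHO2 site shown lies at chr2:14281884-14281904 on the minus strand, in the 5′ UTR, and had a penalty of 1. It is 1 of 5 miR399 sites in that UTR, the others with a penalty of 1.5. The NLA site lies at chr1:635401-635421 on the plus strand, also in the 5′ UTR, with a penalty of 1. The 4 sulfate sites are in coding sequence. They lie at chr3:8113164-8113184 (plus) in APS1, chr4:8414958-8414978 (minus) in APS3, chr5:17591121-17591141 (minus) in APS4 and chr5:3193268-3193288 (plus) in SULTR2;1. APS1 and APS3 had the same 21 bases and a penalty of 3.5. APS4 differed from them by T15A, counted from 1 at the 5′ end of the site, and its penalty was 1.5. The SULTR2;1 penalty was 2.5. No other of the 31346 genes with an mRNA reached the penalty of PHO2 for miR399 or of NLA for miR827. For miR395 as low a penalty was found in 7 genes at the APS1 value, 4 at the SULTR2;1 value and 2 at the APS4 value. These counts include the target genes themselves. APS1, APS3, SULTR2;1 and APS4 are among the 7, SULTR2;1 and APS4 among the 4, and APS4 among the 2. APS2, the ATP sulfurylase that is no miR395 target, had a best penalty of 9.5. A match is a description of these letters and was not tested as a cut site.

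Total counts per library were 2358724 to 2909767. The 3 mutated genes gave no more than 7 counts a library, too few to check the genotypes, but TAS2, a source of RDR6-dependent siRNAs, had 19 to 57 counts in the 6 libraries with rdr6-11 and 2492 to 5885 in the 6 without it. RBCS1A and CAB3, leaf photosynthesis genes, had 251 to 1016 counts per library, and the root patterning genes SHR and SCR had 0 to 28, of small RNA in both cases. The first pair of ein5-1 ski2-3 libraries, replicates 1 and 2, showed no difference beyond sampling noise over protein-coding genes (mean chi-square 1.01 per gene, p = 0.387), though over all genes they did (1.04, p = 0.00847), and were summed as 1 sample, so n is 2 for that genotype and 3 for the others. Replicate 3 of ein5-1 ski2-3 stood apart from that pair, with a mean chi-square of 4.59 and 4.83 per gene over all genes against 1.04 within it. MIR genes held 2.43% of its counts against 3.67% and 3.69% in the pair. Replicate 3 of rdr6-11 also stood apart, at 2.71 and 2.74 per gene over all genes against 1.26 between replicates 1 and 2. MIR genes held 6.09% of its counts against 5.52% and 5.29% in those. Levels are counts per 1000000 counts (CPM) scaled by TMM, with the SD over samples, and changes are log2 ratios with their SE from edgeR's quasi-likelihood test, adjusted by Benjamini-Hochberg over 7219 genes. A gene was called at an adjusted p under 0.05. PHO2, APS1, APS3 and SULTR2;1 passed the filter on low counts, and NLA and APS4 did not.

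The table's small RNA was low for all 6 genes in wild type. Per kb of mRNA, the mean level in Col-0 was 5.07 ± 0.62 CPM for APS1, 1.66 ± 0.76 for APS3, 1.08 ± 0.21 for PHO2, 0.62 ± 0.21 for APS4, 0.226 ± 0.197 for NLA and 0.194 ± 0.184 for SULTR2;1 (SD, n = 3). In that order APS3 and PHO2, APS4 and NLA, and NLA and SULTR2;1 are neighbours whose ranges of 1 SD overlap. In ein5-1 ski2-3 the order per kb was APS1 at 12.5 ± 0.297 CPM, PHO2 at 7.9 ± 1.07, APS3 at 3.23 ± 0.72, SULTR2;1 at 1.47 ± 0.45, APS4 at 1.33 ± 0.0824 and NLA at 1.27 ± 0.54 (SD, n = 2). PHO2 thus moved from the third to the second place, and the ranges of 1 SD of the last 3 genes overlapped.

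**Figure D1:**
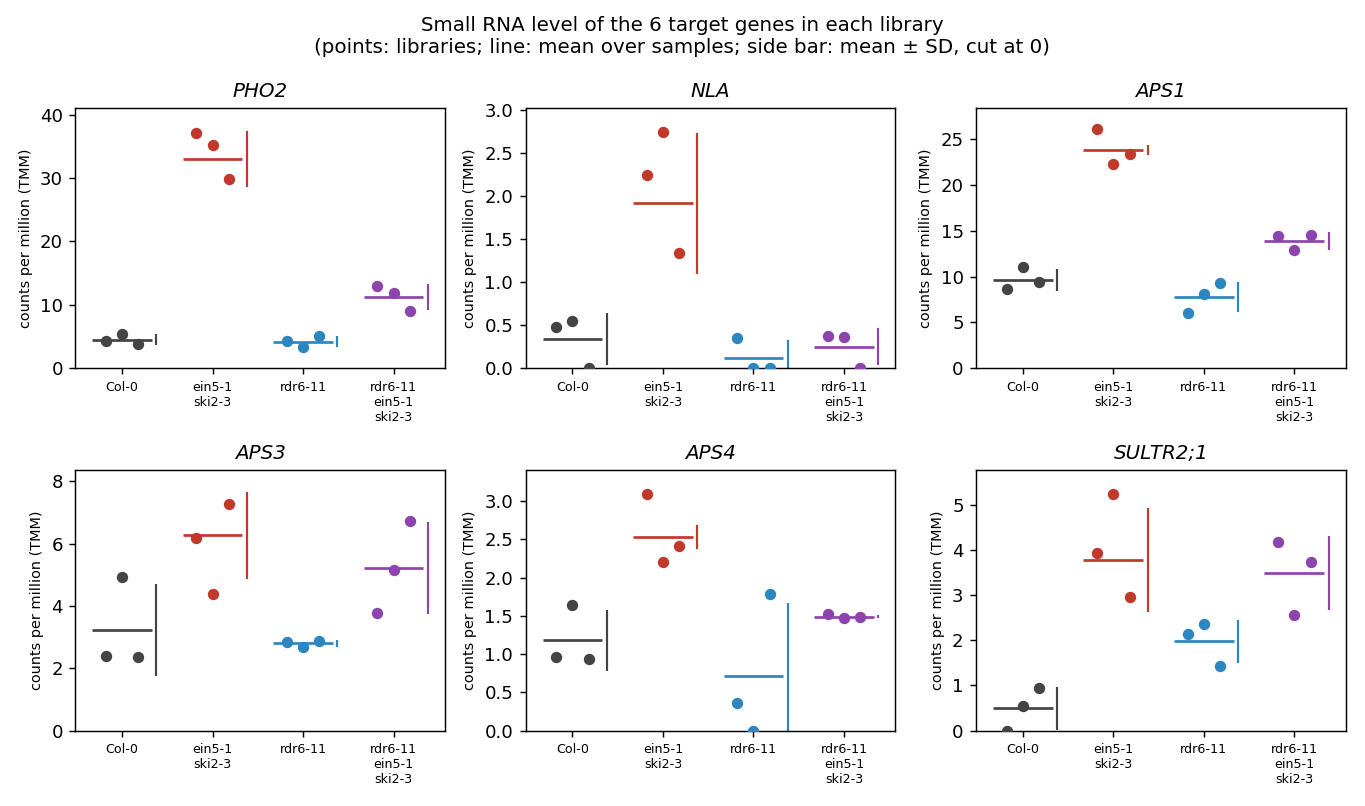
Small RNA level of the 6 genes in CPM (TMM-scaled, linear axes from 0) in each of the 12 libraries, by genotype. Points are libraries, lines are means over samples and side bars are the SD, with ein5-1 ski2-3 replicates 1 and 2 as 1 sample in the mean. PHO2 was at 29.8 to 37.1 CPM in the double mutant and at 3.76 to 5.48 CPM in Col-0.

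Among the phosphate genes, PHO2 (AT2G33770, chr2:14277558-14283113, minus strand, 9 exons) gave the most small RNA. In the order of the replicates it had 9, 10 and 8 counts in Col-0, 132, 128 and 111 in ein5-1 ski2-3, 12, 10 and 14 for rdr6-11 and 34, 32 and 24 for the triple mutant. The double mutant stood above all other libraries, the triple mutant lay between, and Col-0 and rdr6-11 overlapped. Groups that do not overlap are common here: all samples lay above those of Col-0 in 40.3% of genes for ein5-1 ski2-3 and in 17.4% for the triple mutant, the triple mutant lay below ein5-1 ski2-3 in 37.2% and above rdr6-11 in 26.9%. The mean level was 4.52 ± 0.876 CPM in Col-0, 33 ± 4.46 CPM in ein5-1 ski2-3, 4.22 ± 0.834 CPM in rdr6-11 and 11.2 ± 2.02 CPM in the triple mutant (SD).

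PHO2 small RNA rose 7.42-fold in ein5-1 ski2-3 against Col-0 (log2 2.89, SE 0.239, adjusted p = 5.32e-15 by edgeR). Of all genes tested, 30.5% were called higher in that comparison, with a median log2 change of 0.29. Taking RDR6 away from the double mutant lowered PHO2 (log2 -1.57, SE 0.183, adjusted p = 5.69e-10 by edgeR), where 27% of all genes were called lower. The triple mutant was still above Col-0 (log2 1.32, SE 0.294, adjusted p = 0.000481 by edgeR), a comparison in which 8.78% of genes were called higher. It was also above rdr6-11 (log2 1.41, adjusted p = 4.66e-05 by edgeR; 20.4% of genes called higher). rdr6-11 alone did not pass the test (log2 -0.09, 95% interval -0.8 to 0.63). The loss of RDR6 had a different effect in the double mutant than in wild type, with an interaction of log2 -1.49 (SE 0.404, adjusted p = 0.00194 by edgeR); 31.7% of all genes had a lower interaction, and their median was -0.31. That interaction was no longer called when libraries were scaled to MIR genes (log2 -0.56, adjusted p = 0.303 by edgeR).

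NLA (AT1G02860, chr1:635144-637262, plus strand, 6 exons) showed few counts. They were 1, 1 and 0 in Col-0, 8, 10 and 5 in ein5-1 ski2-3, 1, 0 and 0 for rdr6-11 and 1, 1 and 0 for the triple mutant. The 3 double mutant libraries lay above the other 9, none of which had more than 1 count. Among genes that passed the filter, which NLA did not, all ein5-1 ski2-3 samples lay above Col-0 in 40.3%. They lay above the triple mutant in 37.2%. Summed over libraries and scaled, the ratio of ein5-1 ski2-3 to Col-0 was 6.36 (95% counting interval 1.57 to 55.7, from 23 and 2 counts), and that of the triple mutant to ein5-1 ski2-3 was 0.118 (0.0135 to 0.478, from 2 and 23 counts). These intervals cover counting error only. Without the filter on low counts, edgeR gave NLA an adjusted p of 0.0209 in the first comparison and 0.00582 in the second. NLA overlaps AT1G02870 on the other strand, which had 0 to 3 counts per library, and strand is not recorded, so reads in the overlap cannot be told apart. It also overlaps AT1G04147 on that strand, a gene with no counts given.

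Among the sulfate genes, the ATP sulfurylase APS1 (AT3G22890, chr3:8112614-8115024, plus strand, 5 exons) had counts of 18, 20 and 20 in Col-0, 93, 81 and 87 in ein5-1 ski2-3, 17, 24 and 26 for rdr6-11 and 38, 35 and 39 for the triple mutant. The genotypes followed the same order as for PHO2, with no overlap between the double mutant, the triple mutant and Col-0. Mean levels were 9.66 ± 1.18, 23.8 ± 0.566, 7.82 ± 1.65 and 13.9 ± 0.937 CPM in the order of the counts (SD). APS1 rose 2.47-fold in ein5-1 ski2-3 against Col-0 (log2 1.31, SE 0.208, adjusted p = 5.67e-07 by edgeR), and its 95% interval, 1.85- to 3.3-fold, lay below that of PHO2, 5.32- to 10.3-fold. It fell in the triple mutant against ein5-1 ski2-3 (log2 -0.77, SE 0.18, adjusted p = 0.000501 by edgeR), a call lost with DESeq2 (adjusted p = 0.0615) and when ein5-1 ski2-3 was represented by replicate 3 alone (adjusted p = 0.0735 by edgeR). It was higher in the triple mutant than in rdr6-11 (log2 0.83, adjusted p = 0.0022 by edgeR). Against Col-0 the triple mutant did not pass the test (log2 0.53, 95% interval 0.07 to 1, adjusted p = 0.107 by edgeR), nor did the interaction (log2 -0.48, 95% interval -1.11 to 0.15), which was called with library totals (log2 -1.38, adjusted p = 0.000402 by edgeR).

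APS3 (AT4G14680, chr4:8413263-8415650, minus strand, 4 exons) had counts of 5, 9 and 5 in Col-0, 22, 16 and 27 in ein5-1 ski2-3, 8, 8 and 8 for rdr6-11 and 10, 14 and 18 for the triple mutant. On the CPM scale replicate 2 of ein5-1 ski2-3, at 4.4, was below replicate 2 of Col-0, at 4.93, so single libraries overlapped. APS3 rose 1.89-fold in ein5-1 ski2-3 against Col-0 (log2 0.92, SE 0.36, adjusted p = 0.0304 by edgeR). This call was lost with DESeq2 (adjusted p = 0.219) and without ein5-1 ski2-3 replicate 3 (log2 0.49, adjusted p = 0.336 by edgeR), Col-0 replicate 1 (0.129), Col-0 replicate 3 (0.141), ein5-1 ski2-3 replicate 1 (0.0611) or rdr6-11 replicate 2 (0.102). The triple mutant did not pass the test against ein5-1 ski2-3 (log2 -0.2, 95% interval -0.79 to 0.39), and against rdr6-11 it was higher (log2 0.89, adjusted p = 0.0392 by edgeR). That last call was lost in 9 of 23 alternatives, among them DESeq2 (adjusted p = 0.15), library totals (0.0642), no filter (0.239), each rdr6-11 library left out in turn (0.077, 0.102 and 0.0827) and triple mutant replicates 2 (0.072) or 3 (0.197) left out, all but DESeq2 by edgeR. APS3 and APS1 share 57 stretches of 21 bases, 3.02% of those in APS1 and 2.97% of those in APS3, whose reads could belong to either gene. APS3 also overlaps AT4G14675 on the other strand, a gene with no counts given, and reads in that overlap cannot be told apart.

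APS4 (AT5G43780, chr5:17589394-17591737, minus strand, 5 exons) had counts of 2, 3 and 2 in Col-0, 11, 8 and 9 in ein5-1 ski2-3, 1, 0 and 5 for rdr6-11 and 4, 4 and 4 for the triple mutant. The double mutant libraries were above those of the other genotypes in CPM, at 2.2 to 3.09 against at most 1.79. Among genes that passed the filter, which APS4 did not, 40.3% lay above Col-0 in this way. The ratio of ein5-1 ski2-3 to Col-0 was 2.21 with a counting interval of 0.944 to 6, which includes no change, and without the filter its adjusted p was 0.212 by edgeR. No difference was thus detected for APS4, and what size this depth could detect was not tested. APS4 overlaps AT5G43770 on the other strand, which had 0 counts in every library, and reads in the overlap cannot be told apart.

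The transporter SULTR2;1 (AT5G10180, chr5:3193017-3197136, plus strand, 10 exons) differed from PHO2 and APS1 in the libraries with rdr6-11. Its counts were 0, 1 and 2 in Col-0, 14, 19 and 11 in ein5-1 ski2-3, 6, 7 and 4 for rdr6-11 and 11, 7 and 10 for the triple mutant. The 3 mutant genotypes were all above Col-0, which for rdr6-11 held in 26% of genes, and the double and triple mutants overlapped. Mean levels were 0.496 ± 0.472, 3.77 ± 1.15, 1.98 ± 0.479 and 3.49 ± 0.825 CPM in that order (SD). SULTR2;1 rose in ein5-1 ski2-3 against Col-0 (log2 2.9, SE 0.645, adjusted p = 0.000169 by edgeR), with a ratio of summed counts of 8.11 whose counting interval ran from 2.6 to 40.8, Col-0 holding only 3 counts. It was also higher in the triple mutant than in Col-0 (log2 2.71, SE 0.686, adjusted p = 0.00226 by edgeR). Between the triple and the double mutant it did not pass the test (log2 -0.19, 95% interval -0.94 to 0.56), and the counting interval of their ratio was 0.518 to 1.42. Nor did it pass between the triple mutant and rdr6-11 (log2 0.8, 95% interval -0.11 to 1.71, adjusted p = 0.139 by edgeR). In rdr6-11 against Col-0 it was called higher (log2 1.91, SE 0.77, adjusted p = 0.0456 by edgeR), where 21.3% of all genes were. Leaving out 1 library ended that call for Col-0 replicate 1 (adjusted p = 0.21), Col-0 replicate 2 (0.0852), rdr6-11 replicate 1 (0.0805) and rdr6-11 replicate 2 (0.0973, all by edgeR). The interaction was log2 -2.1 (SE 0.861, adjusted p = 0.0371 by edgeR) and was lost in 11 of 22 alternatives.

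**Figure D2:**
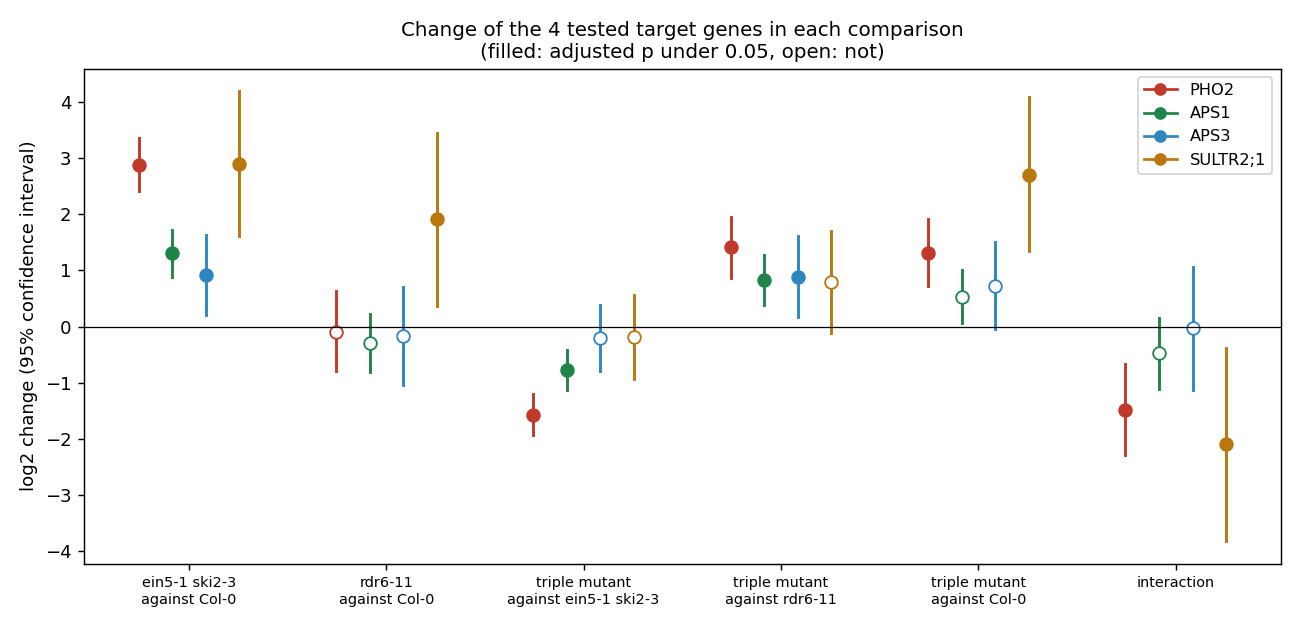
Log2 change (points) with its 95% confidence interval (bars) for the 4 genes that passed the filter, in 5 comparisons and the interaction; the triple mutant is rdr6-11 ein5-1 ski2-3. Filled points had an adjusted p under 0.05 by edgeR's quasi-likelihood test. PHO2 and APS1 were called lower in the triple mutant against ein5-1 ski2-3, and APS3 and SULTR2;1 lie at -0.2 and -0.19 there.

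Counted over the genes, 4 of the 4 tested were higher in ein5-1 ski2-3 than in Col-0 (3 with RLE scaling or DESeq2), beside 30.5% of all genes. In the triple mutant 2 of 4 were lower than in ein5-1 ski2-3 (27% of all genes; 1 of 4 with DESeq2). Against rdr6-11 3 of 4 were higher there (20.4% of all genes), but 2 with DESeq2, with library totals or without rdr6-11 replicate 3. Against Col-0 2 of 4 were higher (8.78% of all genes), and 4 with library totals or scaled to MIR genes. These genes were known to carry small RNA in the double mutant when they were chosen. APS3 had at most 9 counts a library in Col-0 and 8 in rdr6-11, and SULTR2;1 at most 2 and 7. APS3 and SULTR2;1 thus passed the filter through ein5-1 ski2-3 and the triple mutant, and their calls carry that selection. PHO2 had 8 to 10 counts in Col-0. The numbers of calls therefore describe the genes and support no more than the single tests. The scaling moved every gene alike: the median log2 change of all genes in ein5-1 ski2-3 against Col-0 was 0.29 with TMM, 1.1 with library totals and 0.72 when scaled to MIR genes. Relative to that median PHO2 was higher by 2.6 on the log2 scale with TMM, by 2.6 with library totals and by 2.62 scaled to MIR genes. Such distances stay nearly the same by construction, since a scaling shifts each gene and the median together. Their likeness is therefore no check on a result. In the triple mutant against ein5-1 ski2-3, PHO2 relative to the median was at -1.36, -1.37 and -1.38 under the same scalings. APS1 was at -0.56, -0.57 and -0.59, APS3 at 0.01, 0 and -0.03, and SULTR2;1 at 0.02, 0.01 and 0.05. The comparisons share libraries: ein5-1 ski2-3 enters both of the last-named contrasts. The genotypes were bulk tissue, in which fewer cells holding a small RNA and less of it per cell cannot be told apart.

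**Figure D3:**
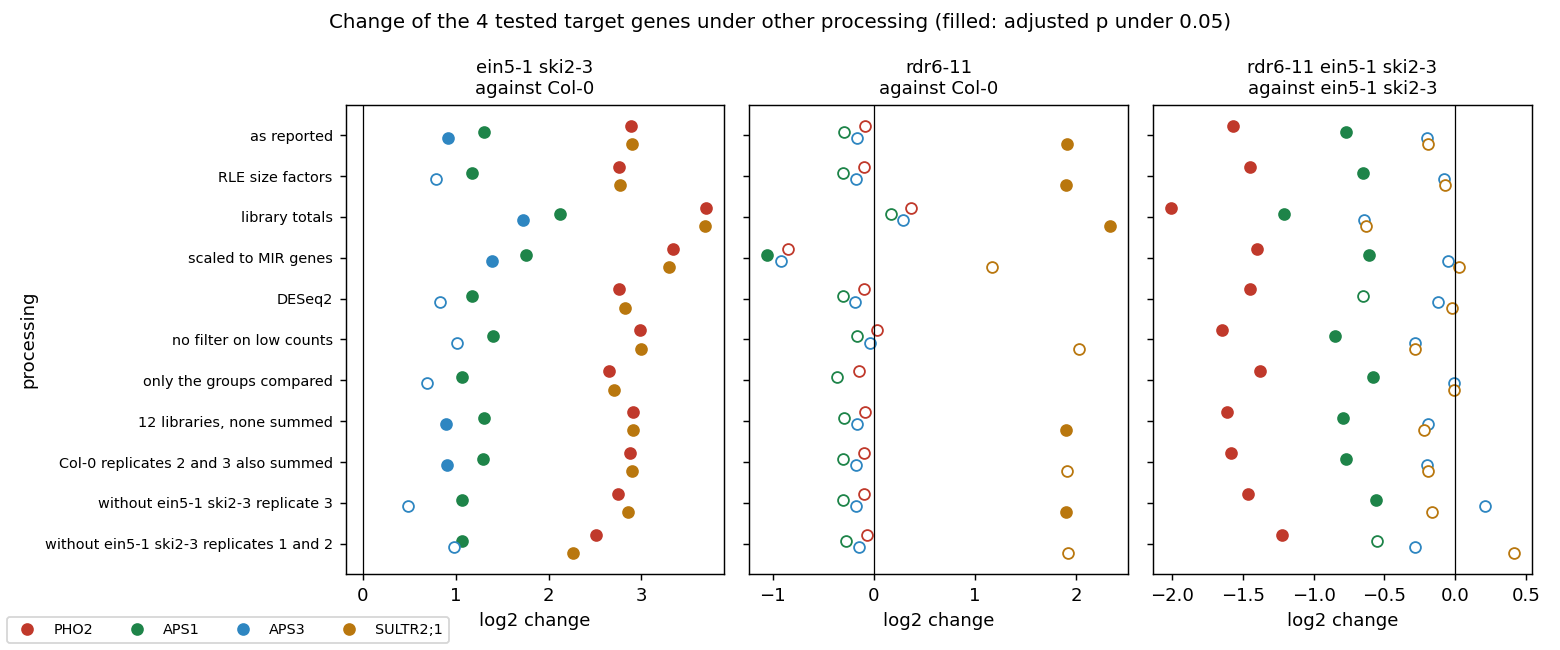
Log2 change of the 4 tested genes in 3 comparisons (panels) under each processing (rows), with filled points for an adjusted p under 0.05. PHO2 stays filled in the outer panels in every row, from 2.51 to 3.7 and from -2.01 to -1.22, while APS3 is filled in some rows of the left panel only, and in the middle panel PHO2, APS1 and APS3 cross 0 and SULTR2;1 stays above it.

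In the authors' deposited table, ein5-1 ski2-3 over Col-0 was 7.28-fold for PHO2 (adjusted p = 2.29e-19), 7.81-fold for SULTR2;1 (0.00491) and 2.39-fold for APS1 (7.38e-05), and the other 3 genes were not called, at 5.98-fold for NLA, 2.1-fold for APS4 and 1.78-fold for APS3. The authors' deposited table called 4.65% of its genes higher there. For ein5-1 ski2-3 over the triple mutant, the authors' deposited table gave 2.96-fold for PHO2 (adjusted p = 4.77e-09) and 1.67-fold for APS1 (0.0349), with 3.08% of its genes called higher, and none of the other 4 was called.

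Small RNA from the genes of the miRNAs themselves was also counted. Of 13 MIR395, MIR399 and MIR827 genes, 10 passed the filter. MIR827, the gene of the miRNA that pairs with NLA, had 11, 17 and 11 counts in Col-0, 44, 56 and 65 in ein5-1 ski2-3, 26, 31 and 27 for rdr6-11 and 13, 7 and 7 for the triple mutant. It was higher in ein5-1 ski2-3 than in Col-0 (log2 1.24, SE 0.256, adjusted p = 6.28e-05 by edgeR) and lower in the triple mutant than in ein5-1 ski2-3 (log2 -2.17, SE 0.274, adjusted p = 5.33e-09 by edgeR). MIR395B and MIR395C had identical counts in all libraries, and near-identical miRNA genes can share reads, so the 6 MIR395 genes are not counted as independent. In ein5-1 ski2-3 against Col-0, 5 of the 10 genes were called lower with TMM, beside 18.8% of all genes. These were MIR395B, MIR395C, MIR395F, MIR399B and MIR399C, at log2 -0.41 to -0.77. But all 5 had a log2 change above 0 with library totals and MIR395F was then called higher. In the triple mutant against ein5-1 ski2-3 none of the MIR395 and MIR399 genes was called with TMM, but MIR395A, MIR395B, MIR395C, MIR395E and MIR395F were called lower with library totals. In rdr6-11 against Col-0 the 6 MIR395 genes were called higher by log2 0.74 to 0.88 with TMM, beside 21.3% of all genes. With library totals all 10 genes were called higher, beside 2364 of the 7219 genes tested. None was called when libraries were scaled to MIR genes. That scaling itself follows the MIR share of 5.29% to 6.09% in rdr6-11 and 2.29% to 2.45% in Col-0. In the triple mutant against rdr6-11 all 10 genes were called lower with TMM, beside 25.2% of all genes. All 10 were also called lower with RLE, library totals or DESeq2, and none when scaled to MIR genes. Over the 10 genes the median log2 change was -0.43 in ein5-1 ski2-3 against Col-0, beside 0.29 over all genes, and 0.77 in rdr6-11 against Col-0, beside -0.02. How far a miRNA's own reads move with the RNA of its target was not tested.

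**Figure D4:**
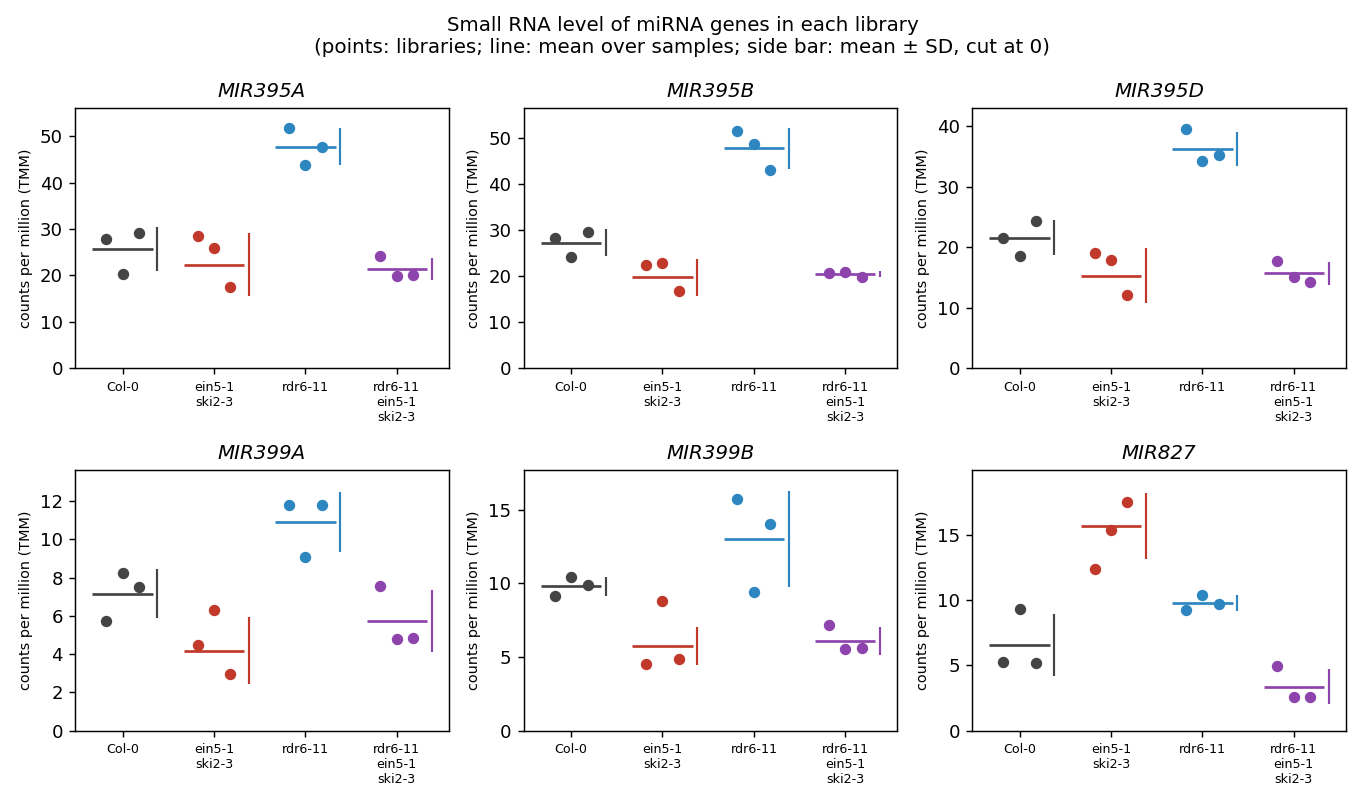
Small RNA level of 6 miRNA genes in CPM (TMM-scaled, linear axes from 0) in each library, with points for libraries, lines for means over samples and side bars for the SD. MIR395 and MIR399 genes are highest in rdr6-11 on this scale, whereas MIR827 is highest in ein5-1 ski2-3, at 12.4 to 17.5 CPM. In rdr6-11 against Col-0 the MIR395 genes were called higher with TMM but not when scaled to MIR genes. MIR399A and MIR399B were called with neither of these scalings. With library totals all 10 tested miRNA genes were called higher, beside 2364 of the 7219 genes tested.

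Some other genes of sulfate assimilation gained small RNA in the double mutant. Of 22 sulfate genes outside the miR395 targets, 13 passed the filter, and in ein5-1 ski2-3 against Col-0 6 were called higher, beside 30.5% of all genes, and none lower (2-sided quasi-likelihood test of edgeR; DESeq2 called 3 higher and none lower). Their median was log2 0.4, beside 0.29 over all genes. The clearest was APR2, an APS reductase that acts on the product of the ATP sulfurylases. Its counts were 9, 8 and 10 in Col-0, 155, 153 and 118 in ein5-1 ski2-3, 17, 21 and 5 for rdr6-11 and 44, 36 and 57 for the triple mutant, which puts the double mutant above all other libraries and the triple mutant in between. Among all genes tested, the double mutant samples all lay above Col-0 in 40.3% and above the triple mutant in 37.2%. APR2 rose 8.43-fold (log2 3.08, SE 0.263, adjusted p = 1.8e-14 by edgeR), and its relative APR1 rose 2.7-fold (adjusted p = 7.87e-06 by edgeR). The sulfur-deficiency genes LSU1 and SDI1 had at most 5 and 7 counts a library outside ein5-1 ski2-3. They passed the filter on low counts only through that genotype, so their calls in comparisons with it carry that selection. APR3 (log2 0.76), the transporter SULTR2;2 (0.81), LSU1 (3.14, from 2 counts in Col-0) and SDI1 (1.86) were also called. Without ein5-1 ski2-3 replicate 3, 4 were called higher and 1 lower, and with replicate 3 alone 3 higher and 1 lower.

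In the triple mutant against ein5-1 ski2-3, 4 of the 13 were called lower, a share near the 27% of all genes, and 1 higher, with a median of log2 -0.21, the same as over all genes. APR2 fell by 1.16 on the log2 scale, LSU1 by 1.66, SULTR2;2 by 0.77 and APR1 by 0.76. With DESeq2 or with replicate 3 alone, 1 of the 13 was called lower, APR2, and none higher, and with library totals 8 were called lower and none higher. APS2, which the naming rule left out and which was picked after its values were seen as the ATP sulfurylase without a miR395 site, was the 1 called higher (log2 1.06, adjusted p = 0.0453 by edgeR). Its counts were 5 to 8 in Col-0, 5 to 9 in ein5-1 ski2-3, 2 to 10 for rdr6-11 and 9 to 12 for the triple mutant. APS2 thus passed the filter on low counts only through the triple mutant. Its call here and its interaction, given below, carry that selection. In ein5-1 ski2-3 against Col-0 APS2 was at log2 -0.77 (95% interval -1.76 to 0.21, adjusted p = 0.185 by edgeR), where APS1 and APS3 were called higher. The root sulfate transporter SULTR1;1 had at most 9 counts a library outside rdr6-11. It passed the filter on low counts only through that genotype, so its calls in comparisons with rdr6-11 carry that selection. In rdr6-11 against Col-0 1 of the 13 was called, SULTR1;1, at log2 0.99 (adjusted p = 0.0463 by edgeR), beside 21.3% of all genes called higher. That call was lost with DESeq2 (adjusted p = 0.154), without rdr6-11 replicate 3 (0.132 by edgeR) and scaled to MIR genes (0.729 by edgeR), where 3 of the 13 were called lower. In the triple mutant against rdr6-11, APR2 was called higher (log2 1.76), and SULTR1;1 (-1.32) and SULTR3;2 (-1.33) lower. Scaled to MIR genes 11 of the 13 were called higher and none lower, with SULTR1;1 at 0.05 and SULTR3;2 at 0.04, and DESeq2 called SULTR1;1 lower but not SULTR3;2 (adjusted p = 0.0652).

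**Figure D5:**
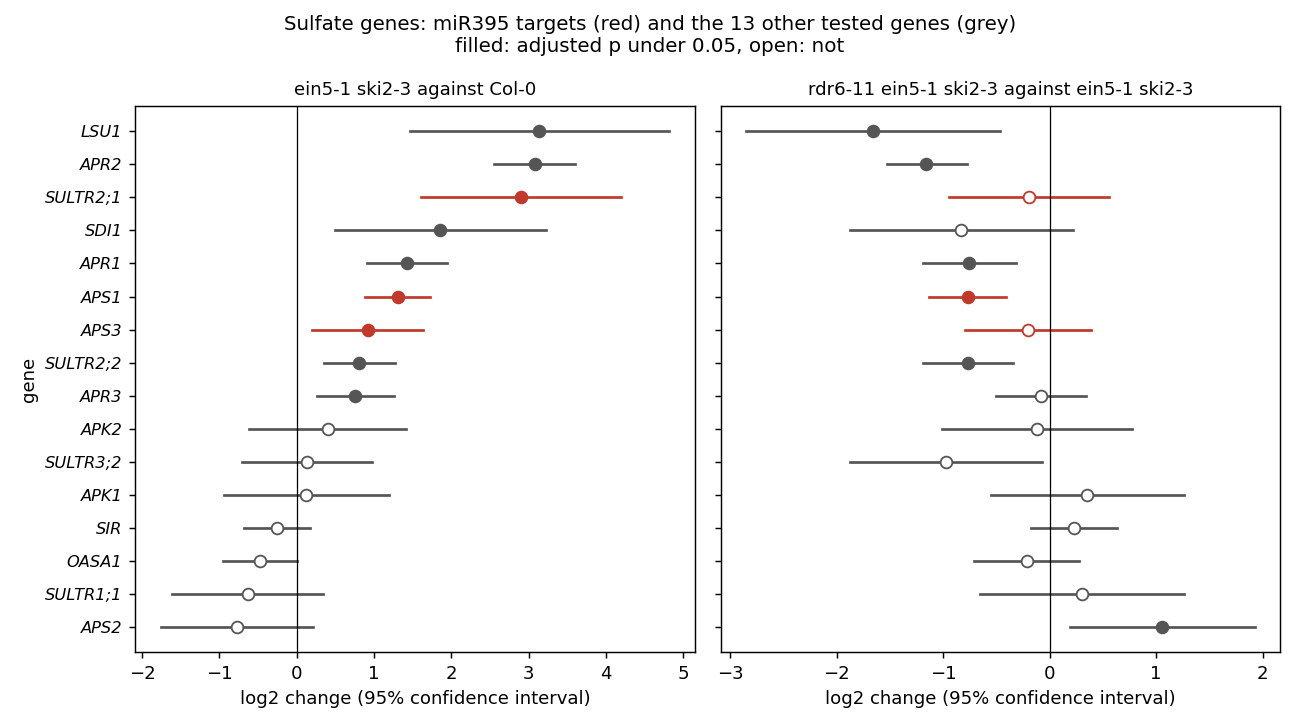
Log2 change (points) with 95% confidence intervals (bars) of the 3 tested miR395 targets (red) and the 13 other tested sulfate genes (grey), in ein5-1 ski2-3 against Col-0 (left) and in the triple mutant against ein5-1 ski2-3 (right); filled points had an adjusted p under 0.05. The miR395 targets lie among APR1, APR2, APR3, LSU1, SDI1 and SULTR2;2 on the left, where APS2 lies lowest, at -0.77.

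Of 23 phosphate signalling and transport genes outside PHO2 and NLA, 22 were in the table and 1 passed the filter, so PHO2 was the only phosphate gene here with over 100 counts in a library. That one was PHT1;8, a phosphate transporter, with 14 to 23 counts in Col-0, 54 to 62 in ein5-1 ski2-3, 32 to 44 for rdr6-11 and 18 to 27 for the triple mutant. It was called higher in ein5-1 ski2-3 than in Col-0 (log2 0.78, SE 0.226, adjusted p = 0.00341 by edgeR), a call lost with DESeq2 (0.094), without ein5-1 ski2-3 replicate 3 (0.0851) and with it alone (0.107). It was lower in the triple mutant than in ein5-1 ski2-3 (log2 -0.94, SE 0.215, adjusted p = 0.000424 by edgeR). None of the other 21 genes exceeded 14 counts in a library, and 9 of them stayed at 2 or fewer.

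The genes whose level moved most like a target gene over the 11 samples were sought among all genes tested, by Pearson's r of log2 CPM. The most alike to PHO2 were MYC2, CPK32 and OPS (r = 0.978, 0.974 and 0.974). For APS1 they were AT2G39710, CWLP and HB5 (0.981, 0.979 and 0.969), for APS3 LLG1, AT5G54720 and SCR (0.963, 0.943 and 0.927), and for SULTR2;1 the pseudogenes AT3G06437, AT5G32408 and AT3G06433 (0.938, 0.925 and 0.923). PHO2 and APS1 had r = 0.947 with each other, and PHO2 and SULTR2;1 0.635. The samples fall into 4 genotypes and share their scaling, so these values describe the order of the genotypes. MYC2 had 5 to 6 counts in Col-0, 83 to 101 in ein5-1 ski2-3, 6 to 10 for rdr6-11 and 15 to 20 for the triple mutant, while AT5G32408 had 3 to 7, 26 to 34, 16 to 27 and 20 to 22.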

How the data were processed

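The authors deposited whole-number read counts per gene, with no read length or strand. Per the submitters' processing notes the tools were CASAVA 1.8.2, Bowtie2, Bowtie and DESeq, and the build TAIR10; how reads with several matches were counted is not given in the sources used here. The ratios (fold changes) and adjusted p-values in the authors' deposited table were copied as they stand. The 6 genes and all lists were chosen with earlier results of these data known.

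Counts were fitted in R 4.3.3 with edgeR 4.0.16 (TMM, filterByExpr with a minimum count of 10 and total of 15, 2-sided quasi-likelihood F tests, all 4 genotypes in 1 fit, adjusted over 7219 genes at 0.05), after a test on simulated data. The interaction is the log2 change of the triple mutant against ein5-1 ski2-3 minus that of rdr6-11 against Col-0. The plan called for summing libraries of a genotype that agree over protein-coding genes. Col-0 replicates 2 and 3 also did (mean chi-square 1.02, p = 0.247) but differed over all genes (1.54), so they were kept apart, which departs from it; their sum was added as an alternative, as were 2 fits without libraries that stood apart. Since the labels do not say which plants each library came from, p-values reflect only sample-to-sample spread, part of which may be technical. Alternatives were RLE and library-total scaling, scaling to MIR genes, no filter, DESeq2 1.42.0, only the groups compared, 12 libraries, a replicate block, and each library left out.

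Named were all 6 genes, up to 8 called genes of each list by adjusted p (APS2, SIR, OASA1, MIR399A and MIR399C fall outside), and for each tested gene the 3 with the highest r (prior count 2). RefSeq TAIR10.1 gave positions and 30403 of 30926 gene names. Depth was 2358724 to 2909767 counts per library, and counting intervals at 95% are exact binomial.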

Additional observations from a re-analysis of the deposited data

Results flagged for a closer look

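Several genes had an interaction that passed edgeR's quasi-likelihood test: losing RDR6 changed them differently in ein5-1 ski2-3 than in wild type. Among the target genes these were PHO2, with a log2 interaction of -1.49, and SULTR2;1, with -2.1. They differ in where the change lies, since PHO2 was called between the triple and double mutants and SULTR2;1 between rdr6-11 and Col-0, and each of these single calls stands with its values in the text above. APS1 (-0.48) and APS3 (-0.03) were not called, though APS1 was with library totals (-1.38).

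Among the other sulfate genes the log2 interaction was -1.32 for APR2, -1.1 for APR1, -0.9 for SULTR2;2 and -1.46 for SULTR3;2, and it was 1.56 for APS2 and 0.7 for SIR, the sulfite reductase. For PHT1;8 it was -1.47. Among the miRNA genes it was -2.77 for MIR827, -0.99 for both MIR395A and MIR395E, -0.79 for both MIR395B and MIR395C, -0.77 for MIR395D and -0.8 for MIR395F. Over all genes tested 51.5% had a called interaction, and scaling moved the median of all genes from -0.31 (TMM) to -1.21 (library totals) and 0.61 (MIR genes). With DESeq2 none of the 13 sulfate genes was called, and 3 of the 10 miRNA genes were.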

How the results depend on the processing

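Over 543 recomputed log2 changes of the 4 tested genes, 469 kept their direction and side of the threshold, 42 lost a call, 8 gained one and 24 changed sign; the cause was not tested. PHO2, APS1 and SULTR2;1 in ein5-1 ski2-3 against Col-0 kept their calls throughout. So did PHO2 in the triple mutant against ein5-1 ski2-3, rdr6-11 and Col-0, and APS1 in the triple mutant against rdr6-11. SULTR2;1 in the triple mutant against Col-0 kept its call in all 22 alternatives that gave a value. The SULTR2;1 calls still carry the selection by the filter named above.

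The sign changes were in values that were not called. For rdr6-11 against Col-0 PHO2 went to 0.37 with library totals, and 0.03 without the filter, APS1 to 0.17 and APS3 to 0.29 with library totals. For the triple mutant against ein5-1 ski2-3 SULTR2;1 went to 0.03 scaled to MIR genes and 0.42 without ein5-1 ski2-3 replicates 1 and 2. The interaction of APS1 went to 0.45 scaled to MIR genes. That of APS3 went to 0.88 scaled to MIR genes, 0.1 with RLE and 0.07 with DESeq2. With 1 library left out, or replicate 3 of both ein5-1 ski2-3 and rdr6-11, the ranges were -0.25 to 0.08 (PHO2) and -0.35 to 0.24 (APS3) in rdr6-11 against Col-0, -0.42 to 0.21 (APS3) and -0.34 to 0.02 (SULTR2;1) in the triple mutant against ein5-1 ski2-3, and -0.44 to 0.41 for the APS3 interaction.

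The number of target genes called was 4 for ein5-1 ski2-3 against Col-0 (3 to 4 with 1 library left out). For rdr6-11 against Col-0 it was 1 and went to 0 without the filter, with DESeq2, with only the groups compared, with Col-0 replicates 2 and 3 summed and without ein5-1 ski2-3 replicates 1 and 2 (0 to 1 with 1 library left out); scaled to MIR genes the 1 was APS1, lower. For the triple mutant against ein5-1 ski2-3 it was 2 and went to 1 with DESeq2 and without ein5-1 ski2-3 replicates 1 and 2. Against rdr6-11 it was 3 and went to 2 to 4. Against Col-0 it was 2 and went to 4 with library totals and scaled to MIR genes. For the interaction it was 2 and went to 1 with RLE, DESeq2, no filter and without ein5-1 ski2-3 replicates 1 and 2, to 0 scaled to MIR genes, and to 3 with library totals (1 to 2 with 1 library left out). Replicate numbers did not pair libraries (18 residual correlations, -0.096 to 0.04). With a replicate block on 12 libraries the pairing changed no count of calls: 4, 1, 2, 3, 2 and 2.

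Over all genes, those higher in ein5-1 ski2-3 than in Col-0 numbered 2202, and 4448 with library totals, 1232 with DESeq2 and 1204 without its replicates 1 and 2; those lower 1357, and 255 and 544 with library totals and MIR scaling. In rdr6-11 against Col-0 1539 were higher (2364 and 50 under those scalings) and 1106 lower (435 and 2799; 730 unfiltered). In the triple mutant against ein5-1 ski2-3 1037 were higher (274 with totals, 1570 without ein5-1 ski2-3 replicate 3, 1575 without rdr6-11 replicate 3 too) and 1946 lower (3474 with totals, 1047 scaled to MIR genes, 756 with DESeq2, 820 with ein5-1 ski2-3 replicate 3 alone, 1235 without it, 1264 without both replicates 3). Against rdr6-11 1473 were higher (5418 scaled to MIR genes, 928 unfiltered, 877 with DESeq2) and 1819 lower (16 and 1181 with MIR scaling and DESeq2). Against Col-0 634 were higher (1576, 2517 and 355 with totals, MIR scaling and DESeq2) and 687 lower (250 and 120). For the interaction 1435 were higher (331 and 2624) and 2286 lower (3431, 433 and, with DESeq2, 1413). NLA and APS4 were limited by depth, with at most 11 counts a library.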
